A study of Mus musculus with 6 samples.

Results

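The glucocorticoid receptor and its targets were examined in satellite cells, the resident stem cells of muscle fibres, from obese and lean mice. The set was chosen by name and holds 9 of the 27179 genes counted, all of which passed the filter on low counts. It comprises the receptor gene Nr3c1, the steroid-activating enzyme gene Hsd11b1, and the glucocorticoid-induced genes Fkbp5, Tsc22d3, Sgk1, Zbtb16, Errfi1, Cebpb and Cebpd. RNA-seq libraries came from sorted satellite cells of wild-type C57Bl/6N mice, 3 libraries from mice on a high-fat diet and 3 from mice on chow. Each library came from total RNA depleted of ribosomal RNA, and age, length of feeding and the number of animals behind a library are not given in the sources used here, so the p-values speak only of how these libraries vary, and part of that variation may be technical. The comparison asks how transcripts of satellite cells differ between obese and lean mice. Total counts ran from 14930394 to 18217818 per library, and levels are given in CPM, a gene's counts relative to the scaled total of its library.

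Glucocorticoids are steroid hormones of the adrenal cortex that cross the cell membrane and bind the receptor, which is held in the cytoplasm by heat-shock proteins and their co-chaperones. The bound receptor enters the nucleus, binds palindromic DNA elements as a dimer and raises the transcription of its targets, and it represses many inflammatory genes. Hsd11b1 regenerates active hormone inside the cell from its inactive form. In skeletal muscle, glucocorticoids are known for promoting protein breakdown and for opposing insulin, and synthetic glucocorticoids are known to affect the differentiation of muscle precursor cells. Several targets are also induced by other signals, such as growth factors, stress and cytokines.

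RefSeq promoter windows (GRCm38.p6) were at hand for 6 of the 9 genes, in 14 windows, one for each annotated start. The set at hand held no window for Nr3c1, Zbtb16 or Cebpd, so these genes were not searched. The 250 bases before each start were searched on both strands for the receptor half-site AGAACA, for the full palindrome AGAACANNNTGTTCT, which contains that half-site in both orientations, for the C/EBP motif TTGCNNAA and for the cyclic AMP response motif TGACGTCA. The 3 windows below are shown because they hold the full receptor palindrome (Sgk1) or belong to genes with a window whose values did not overlap between the diets (Errfi1, Cebpb). Errfi1 has 2 annotated starts, and the one whose window holds a motif is shown. Each is written 5′ to 3′ on the strand of the gene, with the matched letters in capitals.
Sgk1, chr10:21993640-21993889, plus strand: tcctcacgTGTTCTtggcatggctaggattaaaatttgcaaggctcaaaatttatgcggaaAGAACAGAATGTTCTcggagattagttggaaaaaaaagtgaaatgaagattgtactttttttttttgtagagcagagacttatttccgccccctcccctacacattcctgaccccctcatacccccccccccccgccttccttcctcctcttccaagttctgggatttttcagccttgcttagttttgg
Errfi1, chr4:150854820-150855069, plus strand: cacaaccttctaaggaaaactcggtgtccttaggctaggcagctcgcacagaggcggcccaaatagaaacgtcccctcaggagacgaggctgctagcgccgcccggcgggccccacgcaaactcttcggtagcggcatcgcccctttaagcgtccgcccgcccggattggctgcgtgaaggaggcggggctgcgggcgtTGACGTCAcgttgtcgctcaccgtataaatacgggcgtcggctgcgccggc
Cebpb, chr2:167688665-167688914, plus strand: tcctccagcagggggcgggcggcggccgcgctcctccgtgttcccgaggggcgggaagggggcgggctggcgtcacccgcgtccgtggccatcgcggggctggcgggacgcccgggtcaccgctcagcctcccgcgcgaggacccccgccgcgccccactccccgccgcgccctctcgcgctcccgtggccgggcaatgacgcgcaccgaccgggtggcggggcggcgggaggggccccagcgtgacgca

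The window of Sgk1 holds 1 full palindrome and a further half-site, 3 half-site matches in all. Of 32851 windows of this length, 3 (0.00913%) hold the palindrome and 16.1% hold a half-site. Sgk1 has 6 annotated starts, and counts per gene do not tell which of them was used. The Errfi1 window shown holds 1 cyclic AMP response motif, found in 1.55% of windows. The window of its other start (chr4:150853546-150853795, 38% G or C) holds none of the motifs, and which of these starts was used cannot be told either. None of these letters was found in the Cebpb window, where 81.6% of bases are G or C. Receptor half-sites also occurred before a start of Tsc22d3 and before other starts of Sgk1. The C/EBP motif, found in 9.56% of windows, occurred once among the 14 windows, before another start of Sgk1. These matches describe the sequence and say nothing of binding.

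The sorted cells carried satellite cell transcripts. Of 10 satellite cell markers all were tested, and their summed level ran from 4274 to 5314 CPM on the high-fat diet and from 4652 to 5419 CPM on chow, led by Sdc4. The markers did not share a direction: 0 of the 10 passed in edgeR, and the unadjusted p of 5 was under 0.05, beside 7.65% of all tested genes. Pax7, the transcription factor that defines satellite cells, was at 402 ± 29.8 CPM on chow and 234 ± 57.3 CPM on the high-fat diet (adjusted p = 0.180), and Myod1, the factor of muscle commitment, at 335 ± 54.3 and 206 ± 96.8 CPM (adjusted p = 0.502). Megf10 was also lower on average on the high-fat diet, at 349 ± 56.0 CPM on chow and 249 ± 68.8 CPM (adjusted p = 0.622). Itga7, a laminin receptor subunit, was at 245 ± 45.5 and 369 ± 42.3 CPM (adjusted p = 0.328), and Chrdl2 at 296 ± 44.1 and 436 ± 75.8 CPM (adjusted p = 0.373). Pax7 was lower and Itga7 and Chrdl2 were higher on the high-fat diet without overlap of the libraries. These 5 were chosen after their values were seen, and their part in the levels below was not tested. The macrophage markers Adgre1 and C1qa were at 0 counts in all 6 libraries, where 3 counts correspond to between 0.165 and 0.201 CPM. In an earlier analysis of these data, high-fat diet library 1 and chow library 3 stood apart from the other 4, so values without both are given where they touch a result.

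The receptor gene itself was expressed in every library. Nr3c1 (chromosome 18, 39410545 to 39519421, minus strand, GRCm38) was at 284, 267 and 243 CPM in chow libraries 1, 2 and 3, and the same order of high-fat diet libraries gave 231, 167 and 206 CPM. Each high-fat diet library lay below each chow library, although high-fat diet library 1 and chow library 3 differed little. The means were 265 ± 20.6 CPM on chow and 201 ± 32.1 CPM on the high-fat diet (SD, n = 3 each). This difference did not pass in edgeR's quasi-likelihood test over all genes, with a log2 fold change of -0.39 (SE 0.18, 95% interval from -0.78 to -0.004, unadjusted p = 0.0480, adjusted p = 0.649). Without both libraries that stood apart it was -0.55 (adjusted p = 0.644). In a bulk library, fewer cells carrying a transcript and less of it per cell cannot be told apart.

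Hsd11b1, the reductase that makes active glucocorticoid, had overlapping levels on both diets. Its level was 97.3, 86.2 and 50.4 CPM in the chow libraries and 93.5, 55.1 and 116 CPM in the high-fat diet libraries, with high and low libraries on each diet. The log2 fold change was 0.18 (SE 0.32, 95% interval from -0.50 to 0.86, adjusted p = 0.996), an interval that allows differences of either sign. Its sign turned to -0.0668 without high-fat diet library 3 and to -0.0562 without chow library 3, and was -0.0915 without both libraries that stood apart. Hsd11b1 is also known as a fibroblast transcript. The 8 markers of fibro-adipogenic progenitors, the fibroblast-like cells of muscle, summed to between 467 and 668 CPM on the high-fat diet and between 358 and 508 CPM on chow, led by Dpt, with none at 0 in all libraries. Beside Dpt and Dcn, none of the 8 averaged above Col1a1, at 23.3 CPM on chow and 26.5 CPM on the high-fat diet. The part of these cells in the level of Hsd11b1 was not tested.

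**Figure D1:**
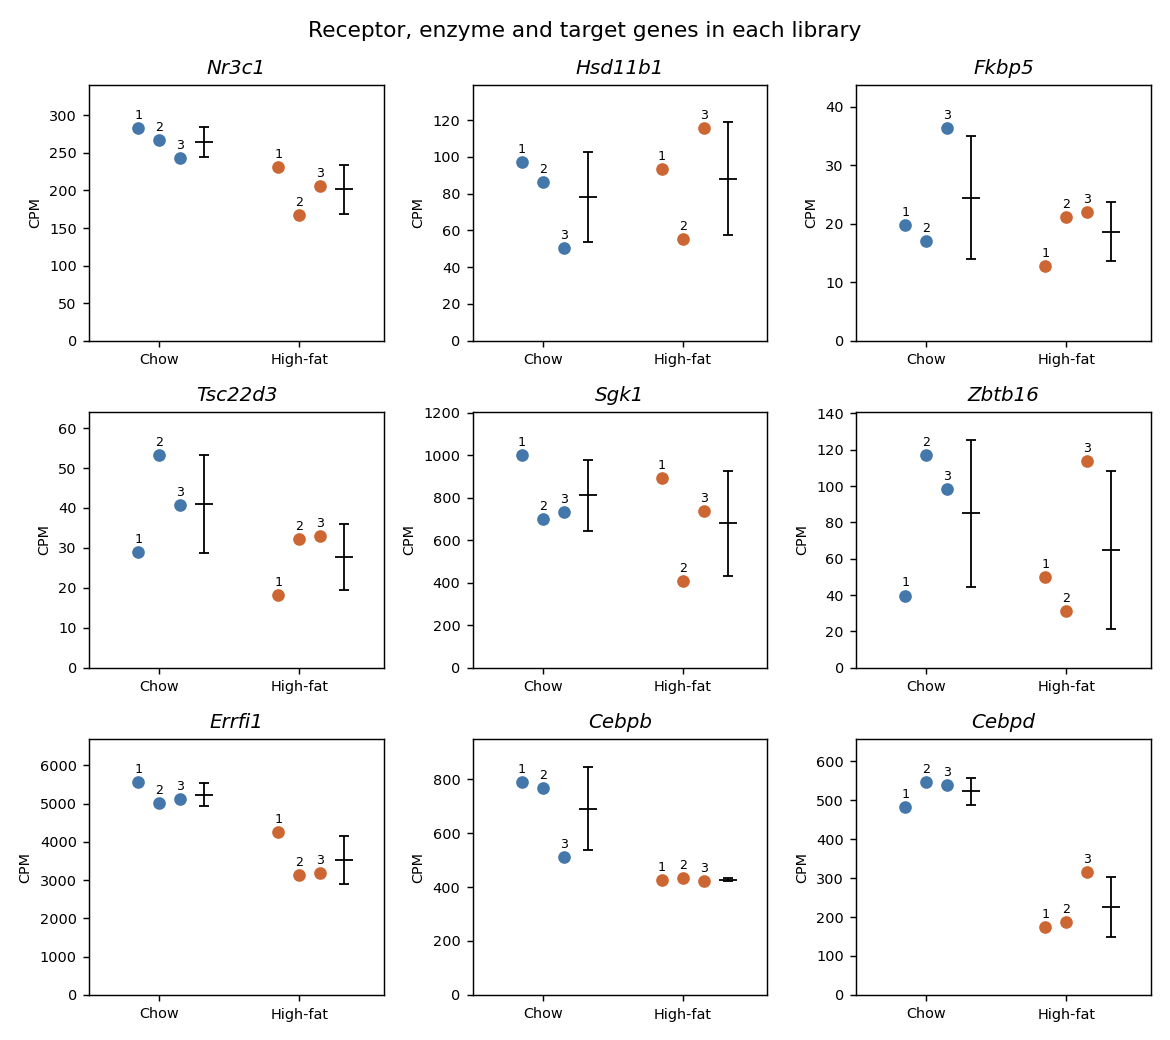
Level of each of the 9 genes in CPM (vertical axis, from 0) in the 3 chow and 3 high-fat diet libraries. Points are libraries with their numbers, and bars are mean ± SD (n = 3). Nr3c1, Errfi1, Cebpb and Cebpd have every high-fat diet library below every chow library, and the other 5 genes overlap.

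Fkbp5, Tsc22d3 and Zbtb16, targets often read as indicators of glucocorticoid action, had lower levels than Sgk1, Errfi1 and the C/EBP genes and a wide spread. Fkbp5, a co-chaperone that the receptor induces and that lowers its hormone binding, was the least abundant of the 9. It was at 19.8, 17.0 and 36.5 CPM in the chow libraries and at 12.8, 21.2 and 22.01 CPM in the high-fat diet libraries, on 197 to 635 counts. Chow library 3 alone stood above all others, and the remaining 5 values were mixed between diets. The log2 fold change of -0.39 (SE 0.50, adjusted p = 0.983) became 0.0234 without chow library 3 and 0.24 without both libraries that stood apart.

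Tsc22d3, which encodes the anti-inflammatory leucine zipper protein GILZ, was at 28.9, 53.3 and 40.8 CPM on chow and at 18.1, 32.1 and 32.9 CPM on the high-fat diet. Only chow library 1 reached down into the high-fat diet values. Its log2 fold change was -0.57 (SE 0.39, 95% interval from -1.41 to 0.28, adjusted p = 0.875), negative in all 6 fits with 1 library left out. It ranged from -0.76 without chow library 1 to -0.33 when chow library 2 or high-fat diet library 1 was omitted, and was -0.33 without both libraries that stood apart. Zbtb16, the gene of the transcription factor PLZF, varied most within each diet. It was at 39.7, 117 and 98.3 CPM on chow and at 50.0, 31.0 and 114 CPM on the high-fat diet, so each diet held both a low and a high library. The coefficient of variation was 47.5% within chow and 66.9% within the high-fat diet, and the log2 fold change of -0.39 (SE 0.45, adjusted p = 0.968) became -1.07 without high-fat diet library 3 and -0.06 without high-fat diet library 2. Without both libraries that stood apart it was -0.11.

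Sgk1, a kinase that regulates ion transport and acts beside Akt, was abundant. The gene whose window holds the palindrome shown above was at 1002, 699 and 732 CPM in the chow libraries and at 891, 408 and 738 CPM in the high-fat diet libraries. High-fat diet library 2 was the lowest of the 6, and both other high-fat diet libraries lay within the chow range. The log2 fold change was -0.26 (SE 0.24, 95% interval from -0.77 to 0.26, adjusted p = 0.939), and it was 0.00383 without high-fat diet library 2, -0.49 without high-fat diet library 1 and -0.56 without both libraries that stood apart.

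Errfi1, which encodes the feedback inhibitor MIG6 of epidermal growth factor receptors, had the highest level of the 9 and a small spread on chow. It was at 5570, 5019 and 5129 CPM in the chow libraries and at 4256, 3141 and 3179 CPM in the high-fat diet libraries. All high-fat diet values lay below all chow values, with high-fat diet library 1 nearest to them. The means of 5239 ± 292 and 3525 ± 633 CPM (SD, n = 3 each) gave a log2 fold change of -0.57 (SE 0.14, 95% interval from -0.87 to -0.27). With an unadjusted p of 0.00104 and an adjusted p of 0.166 it did not pass in edgeR, whereas DESeq2 (adjusted p = 0.00838) and limma-voom (adjusted p = 0.000104) called it lower. In edgeR it passed without high-fat diet library 1 (-0.72, adjusted p = 0.0389), and without both libraries that stood apart it was -0.73 (adjusted p = 0.188). The gene 1700045H11Rik, which overlaps Errfi1, was at 0 CPM on chow and 0.258 CPM on the high-fat diet.

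The clearest difference between diets was in the gene of C/EBP delta, a basic leucine zipper transcription factor that glucocorticoids and cytokines induce early. Cebpd (chromosome 16, 15887286 to 15889545, plus strand) was at 483, 548 and 539 CPM in the chow libraries and at 176, 188 and 315 CPM in the high-fat diet libraries. The chow values lay close together, and the high-fat diet values were all lower, with library 3 between the other high-fat diet libraries and chow. Cebpd fell 2.31-fold, from 523 ± 35.0 to 226 ± 77.5 CPM (SD, n = 3 each), a log2 fold change of -1.21 (SE 0.22, 95% interval from -1.67 to -0.74, adjusted p = 0.0373 in edgeR). It ranked 25th by p among the 13202 tested genes.

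The call of Cebpd depended on single libraries. Its direction could hardly turn in these fits, since every high-fat diet library lay below every chow library. Cebpd passed in 1 of the 6 fits with 1 library left out, the one without high-fat diet library 3 (-1.52, adjusted p = 0.00178). The log2 fold change was -1.05 and -1.09 when the first or the second high-fat diet library was omitted, and from -1.26 to -1.17 when a chow library was, with adjusted p from 0.101 to 0.218 over these 5 fits. Without both libraries that stood apart it was -1.025 (adjusted p = 0.415). Cebpd overlaps Spidr, a DNA repair gene at 36.9 CPM on chow and 29.7 CPM on the high-fat diet, and with the strand setting not given their reads cannot be told apart.

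Cebpb encodes C/EBP beta, a relative that binds the same motif and that satellite cells are known to express while quiescent. It was at 790, 767 and 513 CPM in the chow libraries and at 427, 434 and 423 CPM in the high-fat diet libraries. The high-fat diet values were nearly equal and lay below every chow value, while chow library 3 stood well below the other chow libraries. The means were 690 ± 154 and 428 ± 5.99 CPM (SD, n = 3 each), with a log2 fold change of -0.69 (SE 0.18, 95% interval from -1.07 to -0.31, unadjusted p = 0.00180, adjusted p = 0.199). It did not pass in edgeR. DESeq2 (adjusted p = 0.0117), limma-voom (0.0406) and edgeR with a correction for GC content (log2 fold change -1.002, adjusted p = 0.0206) called it lower. Without both libraries that stood apart it was -0.85 (adjusted p = 0.222). Cebpd over Cebpb, as a ratio of their CPM, was 0.611, 0.714 and 1.05 in the chow libraries and 0.412, 0.432 and 0.746 in the high-fat diet libraries, which overlapped. An exact permutation test of the log2 ratios, 3 against 3 libraries, gave p = 0.3 (two-sided) and cannot go below p = 0.1. The ratios are therefore a description and do not tell whether these genes differed in their change.

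**Figure D2:**
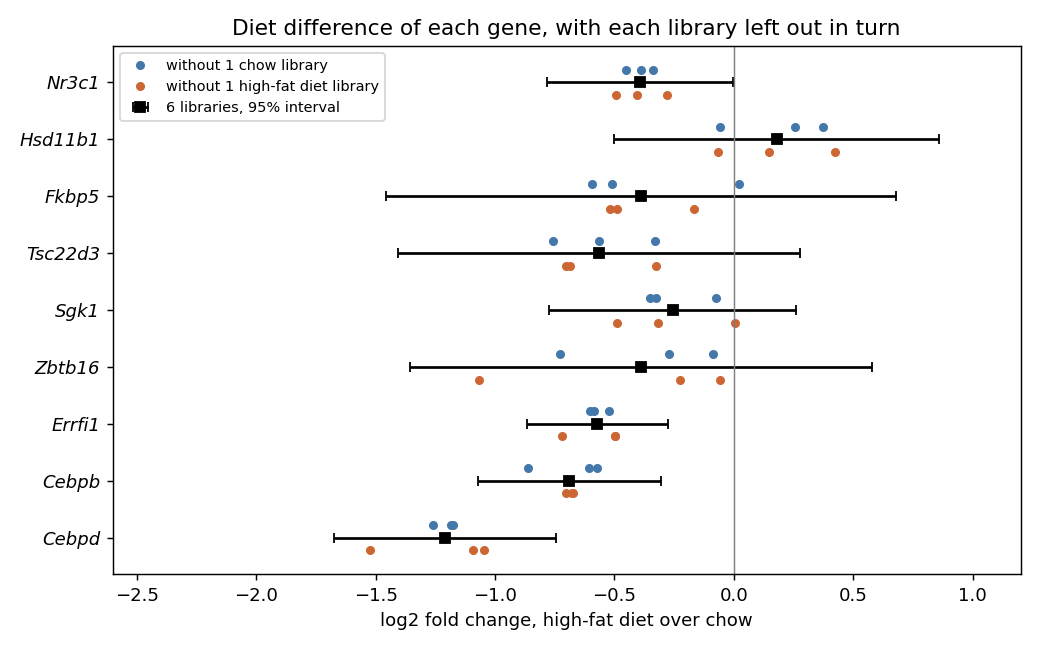
Log2 fold change of high-fat diet over chow for each gene (horizontal axis). Squares with bars are the fit to 6 libraries with its 95% interval, not adjusted for the number of genes, blue points are fits without 1 chow library and orange points fits without 1 high-fat diet library. Nr3c1, Tsc22d3, Zbtb16, Errfi1, Cebpb and Cebpd stay below 0 in each fit, while points of Hsd11b1, Fkbp5 and Sgk1 lie on both sides of 0.

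Counted together, 1 of the 9 genes was called in edgeR, Cebpd, which was lower, and 0 were higher. Of all 13202 tested genes 0.258% were called in either direction and 0.167% were called lower. An unadjusted p under 0.05 was found for 4 of the 9, beside 7.65% of tested genes. The same 4 genes, Nr3c1, Errfi1, Cebpb and Cebpd, had all high-fat diet libraries below all chow libraries, beside 7.87% of tested genes. The log2 fold change was negative for 8 of the 9, with a median of -0.39, while 50.5% of tested genes were negative with a median of -0.01. DESeq2 and limma-voom each called 3 of the 9, Errfi1, Cebpb and Cebpd, all lower, beside 1.19% and 0.417% of the genes they tested that were called lower, and the test against a 1.5-fold change called 0.

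The libraries did not carry the pattern equally. Taking each gene's log2 level relative to its mean over the 6 libraries, the median over the 9 genes was -0.34, -0.46 and 0.01 for the high-fat diet and 0.31, 0.23 and 0.26 for chow, each in the order of the library numbers. In high-fat diet library 3, 4 of the 9 genes lay below their mean, against 8 of 9 in high-fat diet library 2. Hsd11b1, Fkbp5, Tsc22d3, Zbtb16 and Cebpd were each highest there among the high-fat diet libraries.

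Per kilobase of exon, the order of the levels on chow was Errfi1 (1463 ± 81.4 CPM per kb), Cebpb (459 ± 102), Sgk1 (165 ± 34.0), Cebpd (140 ± 9.34), Nr3c1 (34.4 ± 2.68), Hsd11b1 (18.3 ± 5.77), Zbtb16 (16.1 ± 7.65), Tsc22d3 (9.45 ± 2.81) and Fkbp5 (2.58 ± 1.11). The ranges of mean ± SD overlapped between Sgk1 and Cebpd, between Hsd11b1 and Zbtb16 and between Zbtb16 and Tsc22d3. The place of Cebpd depends on its length, since GENCODE M21 gives 3746 bases of exon and the RefSeq gene spans 2260, on which its level is 231 CPM per kb on chow and 100.1 on the high-fat diet. By the GENCODE lengths, on the high-fat diet Errfi1 still led at 984 ± 177 CPM per kb, and Cebpd was at 60.4 ± 20.7, below Sgk1 at 138 ± 50.4.

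The machinery around the receptor showed no shared direction. Of 27 listed chaperones, coregulators, transporters and steroid enzymes 26 were tested and 0 passed over all genes (edgeR). The unadjusted p of 4 was under 0.05, beside 7.65% of all tested genes, and the median log2 fold change was -0.02. The members with the smallest p were Hspa4, a heat-shock protein of the HSP110 family (258 ± 30.3 CPM on chow and 416 ± 101 on the high-fat diet, a difference of 0.69 on the log2 scale, SE 0.20, adjusted p = 0.279), and the receptor coactivator gene Ncoa1 (496 ± 71.9 and 331 ± 56.0 CPM, -0.58, SE 0.18, adjusted p = 0.321). Hspa4 passed with DESeq2 (adjusted p = 0.0483). For their roles, and chosen after their values were seen, 4 further genes are given. Hsp90ab1, the cytosolic chaperone that holds the receptor ready for hormone, was at 2307 ± 37.9 and 2374 ± 390 CPM. H6pd, which supplies Hsd11b1 with its cofactor, was at 110 ± 45.1 and 118 ± 21.0 CPM. Nr3c2, the mineralocorticoid receptor that also binds glucocorticoids, was at 104, 83.6 and 77.9 CPM in the chow libraries and at 32.3, 59.4 and 83.1 CPM in the high-fat diet libraries, which overlapped (adjusted p = 0.738). Hsd11b2, the opposing enzyme that inactivates the hormone, was at or below 5.97 CPM in every library and at 0 counts in chow library 2 and high-fat diet library 2.

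Among other genes known to be induced by glucocorticoids, the metallothionein gene Mt1 fell and Angptl4, a secreted inhibitor of lipoprotein lipase, rose. Of 38 listed genes 32 were tested and 1 was called in each direction, beside 0.258% of all tested genes called in either direction. An unadjusted p under 0.05 was found for 12, beside 7.65% of all tested genes. The log2 fold change was negative for 28, beside 50.5% of all tested genes, with a median of -0.56. Angptl4 was at 42.4, 21.9 and 20.1 CPM in the chow libraries and at 284, 234 and 175 CPM in the high-fat diet libraries (adjusted p = 0.00197), and it passed with each single library left out. It is also a well-known target of the fatty acid receptors PPAR. Mt1 was at 949, 1087 and 958 CPM on chow and at 588, 338 and 478 CPM on the high-fat diet (log2 fold change -1.09, adjusted p = 0.0326). Metallothioneins also respond to metals, and the call of Mt1 was lost when high-fat diet library 2 or any 1 chow library was omitted, with adjusted p from 0.0933 to 0.184. It was also missed when libraries were scaled by their totals alone (adjusted p = 0.0519). Without both libraries that stood apart, neither passed (adjusted p = 0.121 for Angptl4 and 0.142 for Mt1).

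Some well-known glucocorticoid targets of muscle fibres and liver had few or no counts. In the same list Trim63 had counts in 1 library and Mstn and Pck1 in none of the 6, while Fbxo32, like Trim63 a ubiquitin ligase gene of muscle atrophy, was at 44.8 ± 11.5 CPM on chow and 26.5 ± 17.0 CPM on the high-fat diet (adjusted p = 0.865). These 4 were chosen after their values were seen.

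Genes known to be repressed by glucocorticoids had no common direction. Of 21 listed cytokine, adhesion and protease genes 14 were tested and 0 passed (edgeR), while the unadjusted p of 1 was under 0.05, and the median log2 fold change was 0.07. The smallest p belonged to the chemokine gene Cxcl10, at 27.7 ± 10.6 CPM on chow and 6.69 ± 4.38 CPM on the high-fat diet (a difference of -2.05 on the log2 scale, SE 0.63, adjusted p = 0.318), which is also known as an interferon target and passed with DESeq2 (adjusted p = 0.0473). Cxcl10 overlaps the gene Art3, at 6.49 and 5.89 CPM. Csf1, a macrophage growth factor, was next at 19.6 ± 5.77 and 32.8 ± 8.14 CPM (0.74, SE 0.43, adjusted p = 0.787).

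Relatives and partners of the C/EBP factors were tested for 11 of 13 genes, and 0 passed in edgeR. The log2 fold change was negative for 10, beside 50.5% of all tested genes, with a median of -0.26. An unadjusted p under 0.05 was found for 2, beside 7.65% of all tested genes. Nfil3, a repressor of the same leucine zipper class that opposes the clock factor DBP, was at 250 ± 51.7 CPM on chow and 119 ± 28.8 CPM on the high-fat diet (-1.07, SE 0.23, adjusted p = 0.102) and was called lower by DESeq2 (0.00261) and limma-voom (0.0135). Tef, a clock-controlled activator of that class, was at 72.7 ± 21.9 and 35.1 ± 14.8 CPM (adjusted p = 0.435).

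For 7 paralogs of the receptor, Tsc22d and Sgk genes, 5 were tested and 0 passed or had an unadjusted p under 0.05 (median -0.35). Tsc22d1 was at 62.3 ± 10.8 and 41.6 ± 9.45 CPM and Tsc22d4 at 31.4 ± 7.04 and 24.2 ± 9.20 CPM (adjusted p = 0.708 and 0.966). For the epidermal growth factor receptor family that Errfi1 inhibits, 4 of 11 receptors and ligands were tested and 0 passed or had an unadjusted p under 0.05 (median -0.06). Egfr was at 370 ± 74.6 CPM on chow and 396 ± 67.3 CPM on the high-fat diet, overlapping the gene Egfros (43.0 and 51.8 CPM), and the ligand gene Hbegf at 25.5 ± 13.5 and 22.5 ± 5.73 CPM (adjusted p = 0.999 for both). Their signs turned when chow library 3 (Egfr, -0.0376) or high-fat diet library 3 or chow library 1 (Hbegf, 0.00653 and 0.246) was left out.

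**Figure D3:**
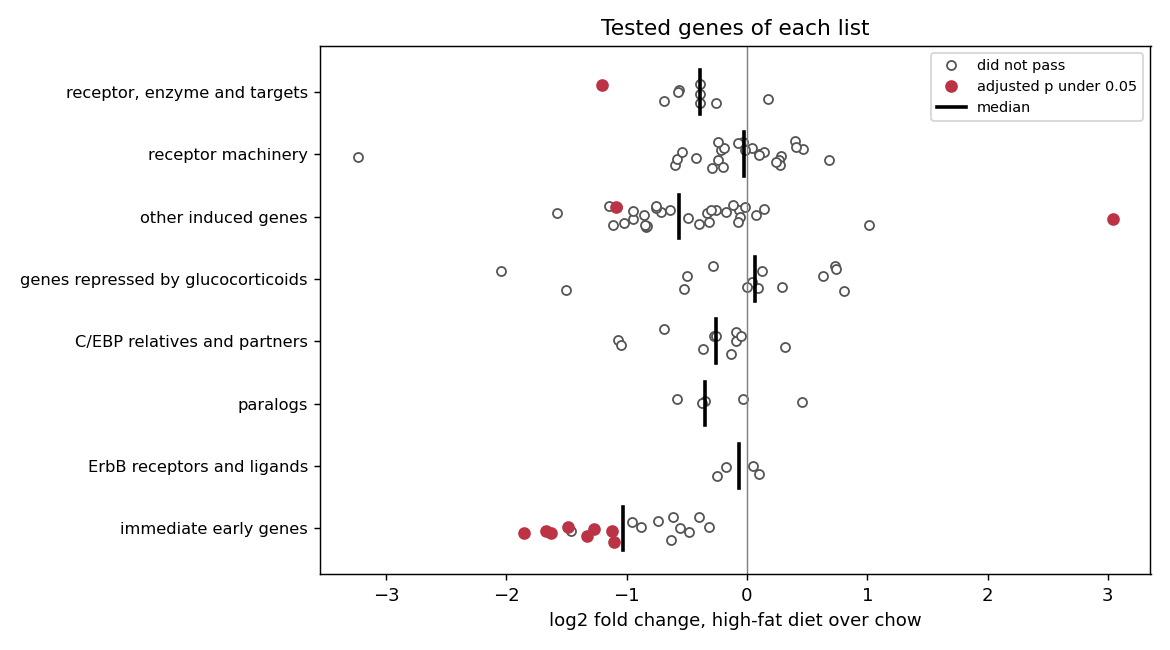
Log2 fold change of high-fat diet over chow (horizontal axis) for each tested gene of the 9 and of the other lists (rows). Filled red points passed at an adjusted p under 0.05, open points did not, and black bars are medians. Cebpd is the 1 filled point among the 9, Angptl4 is the filled point far to the right, and the immediate early genes have a median of -1.03.

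Immediate early genes, which cells induce within minutes of growth factors, stress or dissociation, had log2 fold changes of the same sign as Cebpd, Cebpb and Errfi1, which share some of those inducers. All 18 on the list were tested and negative, beside 50.5% of all tested genes that were negative. Of the 18, 8 passed as lower, beside 0.167% of all tested genes called lower, and 0 were higher. Their median was -1.03 on the log2 scale. This fall was already known in these data when the list was chosen. The 8 became 4 without high-fat diet library 2, 5, 4 and 3 without chow library 1, 2 or 3, and 0 without both libraries that stood apart. The list held the lowest p for Nr4a1 (735 ± 127 CPM on chow, 203 ± 52.7 CPM on the high-fat diet, adjusted p = 0.00297) and Egr1 (4744 ± 670 and 1888 ± 425 CPM, adjusted p = 0.00474). The summed level was 17808, 18605 and 17525 CPM over the chow libraries, against 8586, 6236 and 10759 CPM over those of the high-fat diet, in the order of their numbers. High-fat diet library 3, where Cebpd was highest among that diet, also had the highest sum of its diet. The order of high-fat diet libraries 1 and 2 differed, with Cebpd at 176 and 188 CPM and sums of 8586 and 6236 CPM. Cebpb was lowest in high-fat diet library 3, at 423 CPM. Among the high-fat diet libraries Errfi1 was highest in library 1, at 4256 CPM. The part of this shared change in the levels of Cebpd, Cebpb and Errfi1 was not tested.

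Of the markers of other cell types, those of fibro-adipogenic progenitors, with the sums given beside Hsd11b1, were the most abundant. Dpt, at 247 ± 78.7 CPM on chow and 340 ± 38.5 CPM on the high-fat diet, and Dcn, at 113 ± 8.32 and 138 ± 46.8 CPM, both matrix genes, were above the satellite cell marker Cdh15 at 82.3 ± 8.14 and 92.0 ± 31.95 CPM. Cdh15 was the least abundant of the 10 satellite cell markers on each diet. The other markers on the progenitor list averaged below Cdh15. Among them Pdgfra was at 5.60 ± 2.44 CPM on chow and 3.25 ± 2.84 CPM on the high-fat diet, and at 0 in high-fat diet library 2. The other lists had lower sums. The 7 macrophage and leukocyte markers summed to between 10.9 and 27.4 CPM on the high-fat diet and between 19.2 and 51.6 CPM on chow, and the 5 endothelial markers to between 36.0 and 168 CPM and between 57.6 and 131 CPM, with none of the 5 at 0 throughout. Mural, myofibre and Schwann cell markers reached at most 163, 32.3 and 50.7 CPM in any library, neutrophil markers 10.7 CPM and adipocyte markers 7.79 CPM, with Plin1 and Lep at 0 in all 6. Among the lists for other cell types 0 markers passed in edgeR (Kdr alone had an unadjusted p under 0.05, at 10.97 ± 3.31 CPM on chow and 29.1 ± 8.79 CPM on the high-fat diet). Dcn, Cdh15, Col1a1, Pdgfra and Kdr were chosen after their values were seen. Macrophage and leukocyte sums overlapped between the diets and were lower on average on the high-fat diet, as was Cebpd. By library they were 45.8, 19.2 and 51.6 CPM on chow and 27.4, 26.0 and 10.9 CPM on the high-fat diet. Their lowest values within each diet, in chow library 2 and high-fat diet library 3, stood beside the highest Cebpd of that diet (548 and 315 CPM). The part of these cells in the level of Cebpd was not tested.

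The genes whose pattern over the 6 libraries was most like that of Cebpd were Rnf213, Dhx30 and Zfp36. Likeness was measured as the root mean square difference of log2 CPM, each gene centred on its own mean, among 7003 named genes with at least 10 CPM on average. It was 0.0895 for Rnf213, an interferon-inducible ubiquitin ligase, 0.0965 for the helicase gene Dhx30 and 0.1 for Zfp36, an immediate early gene whose protein destabilises messenger RNAs. Rnf213 was at 494, 631 and 583 CPM in the chow libraries and at 191, 195 and 297.4 CPM in the high-fat diet libraries. For Nr3c1 the closest were the translation factor gene Eif4a2 (0.0523), the Mediator subunit gene Med1 (0.0542), which is a coactivator of nuclear receptors, and the ubiquitin ligase gene Siah2 (0.0619). These genes were picked for their likeness, and it is a description.

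**Figure D4:**
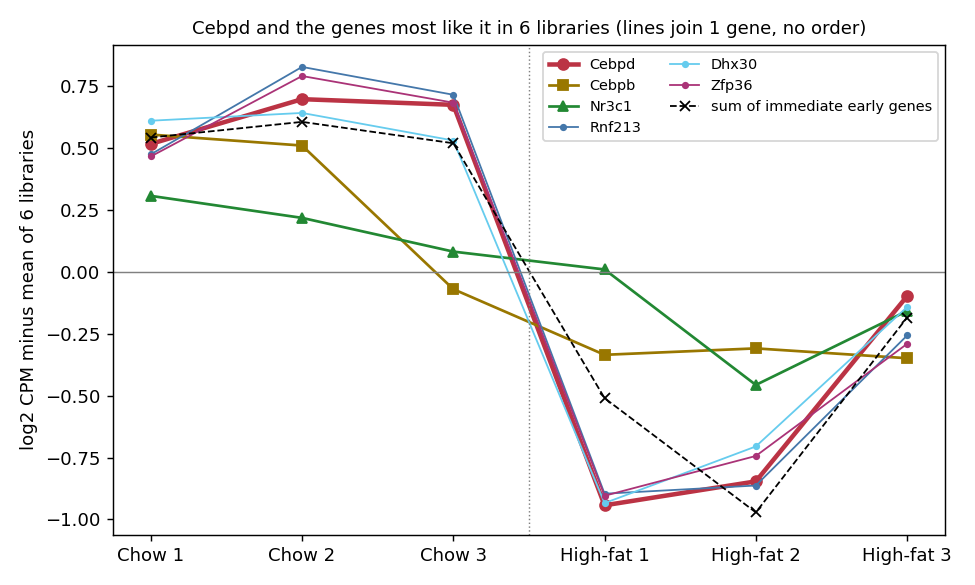
Log2 CPM minus the mean of the 6 libraries (vertical axis) in each chow and high-fat diet library, for Cebpd, Cebpb, Nr3c1, the 3 genes most like Cebpd and the sum of 18 immediate early genes (dashed). Cebpd and the genes most like it are above 0 in the chow libraries and below 0 in the high-fat diet libraries, with high-fat diet library 3 nearest to 0. Lines join the values of 1 gene and imply no order.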

How the data were processed

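The deposited values were whole-number counts of reads per Entrez gene ID, 1 file per library. Per the submitters' processing notes, Bowtie2 and featureCounts were used with the mouse builds GRCm38 and mm10. Versions, strand setting, annotation release and the treatment of multiply mapped reads are not given in the sources used here. Symbols came from the RefSeq table of GRCm38.p6 (25275 of 27179 IDs) and GENCODE M21 (18 more), and exon lengths from GENCODE M21.

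In R 4.3.3 with edgeR 4.0.16, genes were kept by filterByExpr (minimum count 10), scaled by TMM and tested by the quasi-likelihood F test (two-sided, no covariate beside diet). Calls were made at a Benjamini-Hochberg adjusted p under 0.05 over all 13202 tested genes. Standard errors came from the fold change and its F value, as |log2 fold change|/√F, and 95% intervals used the test's degrees of freedom. The test was checked on simulated data with known changes, most of which it missed at this number of libraries, so a gene that did not pass may still differ. No pair of libraries of a diet agreed within sampling noise. Floors of 3 counts cover counting error only.

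The genes and lists were chosen with earlier results of these data known. All 9 genes were named. Of each other list up to 3 called genes were named, or the 2 with the smallest p, and for Nr3c1 and Cebpd the 3 genes most like each, without predicted genes, RIKEN clones and pseudogenes. Of marker lists, the gene leading a sum and markers at 0 could be named, as could genes that overlap a named gene. Genes outside these rules are marked in the text as chosen after their values were seen. Alternatives were other scalings, filters and thresholds, DESeq2 1.42.0, limma-voom (limma 3.58.1), robust dispersions, a replicate block, removal of mitochondrial genes, length and GC corrections (a loess trend per library, span 0.3) and leaving libraries out. Leaving them out for the count of immediate early genes was chosen after seeing the data.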

Additional observations from a re-analysis of the deposited data

How the results depend on the processing

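The count of 1 among the 9 genes became 2 with no filter on low counts and with the GC correction, 3 with DESeq2, limma-voom or limma-voom with quality weights, and 0 against a 1.5-fold change or without both high-fat diet library 1 and chow library 3. For the 92 other pathway genes tested, 2 became 9 with no filter, 8 with DESeq2, 7 with limma-voom, 8 with quality weights, 1 with library size only or against a 1.5-fold change, and 0 without both libraries. The count of 34 over all genes became 163, 280, 99 and 112 with no filter, DESeq2, limma-voom and quality weights, 6 against a 1.5-fold change and 1 without both libraries. Leaving out 1 library gave 0 to 1, 1 to 3 and 9 to 44, and for the 8 immediate early genes 3 to 9, with 0 without both libraries. The cause of these changes was not tested, and fits without libraries had fewer samples. Log2 fold changes changed sign for Hsd11b1 (-0.0476 with quality weights, -0.0915 without both libraries, -0.0668 to 0.42 with 1 left out), Fkbp5 (0.24 without both, -0.59 to 0.0234), Sgk1 (-0.49 to 0.00383), Egfr (-0.0606 with quality weights, -0.13 without both, -0.0376 to 0.25) and Hbegf (0.14 with quality weights, -0.53 to 0.25), none of which was called in any setting. Nr3c1, Tsc22d3, Zbtb16, Errfi1, Cebpb and Cebpd kept their direction in all 22 alternatives. Most of these alternatives used the same libraries. For Nr3c1, Errfi1, Cebpb and Cebpd, whose values did not overlap, leaving a library out could hardly turn it. As a replicate block, the numbers in the titles gave 45 calls over all genes and 1 among the 9. Deviations of same-numbered libraries correlated at 0.0245, 0.0346 and -0.0261, and those of other pairs at -0.0556 to 0.0332. Libraries 1 and 2 of each diet correlated best with their own number, and library 3 of each diet did not. Values this small cannot tell whether the numbers pair the libraries. The lowest counts among the 9 were those of Fkbp5 (197 to 635) and Tsc22d3 (279 to 915).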
